A study of Mus musculus with 6 samples.

Results

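The enzymes that start and lengthen chondroitin chains were examined in mouse liver, on 6 expression arrays from 3 diabetic and 3 wildtype males. Chosen by gene name through the RefSeq accession in each probe set's identifier, the group comprised Csgalnact1, Csgalnact2, Chsy1, Chsy3, Chpf and Chpf2. Of these 6 genes, 5 had a probe set, 1 each, among 909 named genes and 1246 probe sets in all, and Chpf2 was not analysed here. The arrays, which are focused on genes of glycan biology, were made from total liver RNA of diabetic mice, described in the series title as having insulin-deficient diabetes, and of healthy wildtype mice. How the diabetes was brought about, the strain, the age and whether each array came from its own animal are not stated in the labels, so p-values measure the spread between these samples, which may be technical. The study's stated interest was whether enzymes of glycosaminoglycan synthesis are reduced in diabetes, in connection with the turnover of plasma lipids.

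Chondroitin sulfate is a long chain of alternating glucuronic acid and N-acetylgalactosamine, built in the Golgi on a short sugar linkage that is attached to a core protein. The same linkage can carry heparan sulfate instead, and the first sugar added to it decides which chain follows: N-acetylgalactosamine from Csgalnact1 or Csgalnact2 opens a chondroitin chain, while N-acetylglucosamine from an exostosin family enzyme opens heparan sulfate. Chsy1 and Chsy3 then add both sugars in turn, with Chpf as a partner in polymerisation. Hepatocytes secrete chondroitin sulfate attached to bikunin into plasma, and the matrix-producing cells of the liver place it on decorin, biglycan and versican.

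Of the 5 measured enzymes, none passed the test between diabetic and wildtype liver, and the diabetic and wildtype arrays overlapped for every one of them. The largest difference was a lower mean for Chsy1, by 0.26 on the log2 scale, and it rested mainly on 1 diabetic array. Chpf had a mean lower by 0.11. Csgalnact2 (-0.02), Chsy3 (0.02) and Csgalnact1 (0.00) had nearly equal means in the 2 groups.

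Values are the authors' RMA values, read as log2, in which 1 unit is a doubling of signal. The test was limma's moderated test over all 1246 probe sets with Benjamini-Hochberg adjustment and a threshold of 0.05. It called 0 of the 5 enzymes, where it called 4 of 1246 probe sets, or 0.321%, all of them higher in diabetic liver. With arrays of the same replicate number treated as a block, it called 0 of 1246, with 54 probe sets, or 4.33%, and 0 of the 5 enzymes at an unadjusted p under 0.05. Without the block there were, at that level, 0 of 5 enzymes, against 37 probe sets or 2.97%, and the groups were free of overlap for 0 of 5 enzymes, against 98 probe sets or 7.87%. Means in diabetic liver were lower for 3 of 5 enzymes, against 616 probe sets or 49.4%. The median difference was -0.017 over the 5 enzymes and 0.002 over all probe sets, and the median size of a difference, whatever its sign, was 0.0198 and 0.0868.

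**Figure D1:**
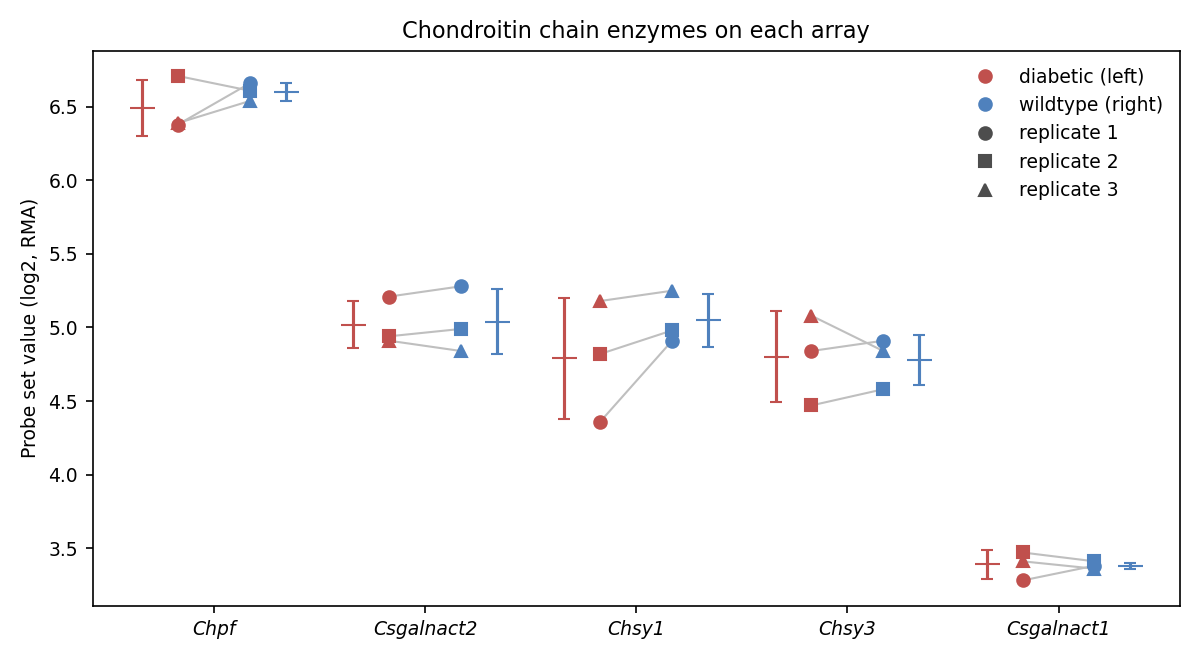
Probe set values (log2, RMA) of the 5 enzymes on each array, with diabetic arrays (red) left of wildtype arrays (blue), the replicate number as the symbol, grey lines between arrays of the same number, and horizontal marks with bars for the mean ± SD (n = 3 per group). The groups overlap for every enzyme, and the widest spread is that of Chsy1 in diabetic liver, between 4.36 and 5.18.

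Csgalnact1, the enzyme mainly credited with opening chondroitin chains in cartilage of mice, gave 3.28, 3.47 and 3.41 on diabetic arrays 1 to 3, against 3.38, 3.41 and 3.36 on wildtype arrays 1 to 3 (log2). The diabetic arrays lay on both sides of the wildtype ones. The means were 3.39 ± 0.10 in diabetic liver and 3.38 ± 0.02 in wildtype liver (SD, n = 3 each), which differ by 0.00 (95% interval -0.19 to 0.20, limma adjusted p = 0.994). This narrow interval belongs to a dim probe set: 16.2% of all probe sets had a lower mean. A change of a transcript near background would be compressed, so the interval does not bound a change in the transcript itself.

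Its relative Csgalnact2, which adds the same sugar, gave 5.21, 4.94 and 4.91 on diabetic arrays 1 to 3, against 5.28, 4.99 and 4.84 on wildtype arrays 1 to 3. In both groups the array numbered 1 was the highest, and the values of each number nearly coincided between diabetic and wildtype liver. The means were 5.02 ± 0.16 in diabetic liver and 5.04 ± 0.22 in wildtype liver (SD, n = 3 each), so that they differ by -0.02 (95% interval -0.36 to 0.33, limma adjusted p = 0.990). Without wildtype 1 it was 0.105, and without wildtype 3 it was -0.114.

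Chsy1, the chondroitin synthase whose loss in mice disturbs digit and skeletal development, gave 4.36, 4.82 and 5.18 on diabetic arrays 1 to 3, against 4.91, 4.98 and 5.25 on wildtype arrays 1 to 3. Diabetic 1 was the lowest array and diabetic 2 the next, while diabetic 3 lay above 2 of the 3 wildtype arrays. The means were 4.79 ± 0.41 in diabetic liver and 5.05 ± 0.18 in wildtype liver (SD, n = 3 each), a difference of -0.26 with a standard error of 0.21, or 0.83-fold (95% interval 0.58 to 1.19, limma adjusted p = 0.928). Between arrays of the same number, the diabetic one was lower in 3 of 3 comparisons, with differences of -0.55, -0.16 and -0.07 for numbers 1, 2 and 3. Such a run of lower values was found for 144 of 1246 probe sets, or 11.6%. Without diabetic 1 the Chsy1 difference was -0.0493, without wildtype 3 it was -0.161, and without diabetic 3 it was -0.46, none of which passed the test.

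Chsy3, the second chondroitin synthase, gave 4.84, 4.47 and 5.08 on diabetic arrays 1 to 3, against 4.91, 4.58 and 4.84 on wildtype arrays 1 to 3. Diabetic liver held both the lowest and the highest array, and the arrays numbered 2 were the lowest of either group. The means were 4.80 ± 0.31 in diabetic liver and 4.78 ± 0.17 in wildtype liver (SD, n = 3 each), so that they differ by 0.02 (95% interval -0.40 to 0.44, limma adjusted p = 0.990). It ran from -0.123 without diabetic 3 to 0.183 without diabetic 2.

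Chpf, the polymerising factor, was the brightest of the 5 and gave 6.38, 6.71 and 6.39 on diabetic arrays 1 to 3, against 6.66, 6.61 and 6.54 on wildtype arrays 1 to 3. Diabetic 1 and diabetic 3 lay below all wildtype arrays, and diabetic 2 lay above them. The means were 6.49 ± 0.19 in diabetic liver and 6.60 ± 0.06 in wildtype liver (SD, n = 3 each), a difference of -0.11, or 0.93-fold (95% interval 0.77 to 1.12, limma adjusted p = 0.942). It was -0.22 without diabetic 2, -0.0569 without diabetic 1 and -0.0577 without diabetic 3.

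The intervals of all 5 enzymes left out a fall of 1 (log2), and those of 4 left out a fall of 0.5, the exception being Chsy1. All 5 left out a rise of 0.5. For the dim probe sets these limits describe the signal and not the transcript.

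The promoter DNA of the 2 enzymes with the largest differences is shown as context for the loci, and no measurement of this study bears on it directly. The windows are the 250 bases before the RefSeq start in GRCm38.p6, at chr7:66109242-66109491 on the plus strand for Chsy1 and at chr1:75479472-75479721 on the minus strand for Chpf, written 5′ to 3′ in the direction of the gene. Capitals mark matches to 3 short motifs on either strand, chosen after the windows had been read: TGACGTCA, the cAMP response element, CACGTG, an E-box, and GGGCGG, the GC box.
Chsy1: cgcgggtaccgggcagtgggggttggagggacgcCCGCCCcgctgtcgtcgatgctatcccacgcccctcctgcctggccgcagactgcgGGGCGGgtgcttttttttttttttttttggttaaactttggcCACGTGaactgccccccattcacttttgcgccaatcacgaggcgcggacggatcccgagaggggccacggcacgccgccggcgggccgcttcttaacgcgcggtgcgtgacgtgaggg
Chpf: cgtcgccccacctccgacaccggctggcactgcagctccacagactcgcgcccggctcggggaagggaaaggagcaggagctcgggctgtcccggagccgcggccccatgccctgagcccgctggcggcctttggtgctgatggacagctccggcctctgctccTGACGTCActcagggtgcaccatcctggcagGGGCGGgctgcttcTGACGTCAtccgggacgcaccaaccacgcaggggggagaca

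The Chpf window held 2 cAMP response elements, beginning 86 and 41 bases before the start, and 1 GC box. The Chsy1 window held 1 E-box, 118 bases before the start, and 2 GC boxes. No 2 of these matches overlapped. Over the same window of 27025 genes, 1.62% held the cAMP response element, 6.05% the E-box and 32.9% the GC box. Csgalnact2 has 2 annotated starts, of which the first had 4 GC boxes and the other none, and neither had the other motifs. The windows of the members with an entry in the table, Chpf2 included, were 58.4% to 70.4% G and C, against a median of 52.0% over all genes. Csgalnact1 and Chsy3 were not in the table used. A match to these letters is a description and does not show that a factor binds there.

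In order of signal, Chpf (mean over the 6 arrays 6.55) came before Csgalnact2 (5.03), Chsy1 (4.92), Chsy3 (4.79) and Csgalnact1 (3.39). This orders probe set signals, which also depend on how well each set of probes hybridises, and so is not an order of transcript abundance. Chpf lay above Csgalnact2 by 1.52 ± 0.22 and Chsy3 above Csgalnact1 by 1.40 ± 0.26 (log2, mean ± SD over 6 arrays), and these pairs had separate ranges. The 3 in the middle could not be ranked: Csgalnact2 exceeded Chsy1 by 0.11 ± 0.45, on 4 of 6 arrays, and Chsy1 exceeded Chsy3 by 0.13 ± 0.34, on 5 of 6 arrays. Only Chpf and Csgalnact2 exceeded the median probe set, at 5.0, and Csgalnact2 did so narrowly.

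No detection call came with these values. For comparison, 5 proteoglycan and matrix genes known mainly from brain or cartilage, Ncan, Bcan, Ptprz1, Acan and Col9a2, had means between 2.68 and 5.79. These were picked from the core protein list after their values had been seen. The means of 4 of the 5 chondroitin enzymes fell inside that range, and Chpf lay above it. The range is wide: 5.14% of all probe sets had a lower mean than Ptprz1, and 63.4% a lower mean than Col9a2. Its top lies above the median probe set, so a place inside it does not show that an enzyme read near background. The hepatocyte markers were bright, 8 of 8 above the median probe set. Of these 8, 4 had higher and 4 lower means in diabetic liver, 3 had an unadjusted p under 0.05 and 1 was called. That was the plasma lectin Mbl2, higher by 1.03 in diabetic liver (limma adjusted p = 0.0412, and 0.142 with the replicate block). Igfals, the carrier subunit of circulating IGF complexes, differed by -0.61 (adjusted p = 0.928), Mbl1 by 0.27 and the asialoglycoprotein receptor subunit Asgr1 by 0.00.

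**Figure D2:**
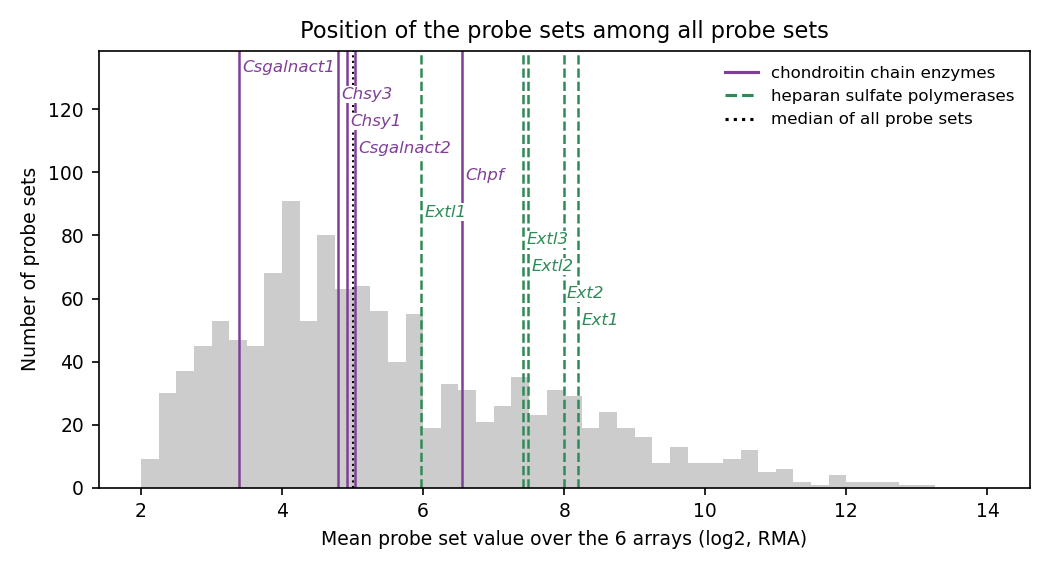
Histogram of the mean value (log2, RMA) of all 1246 probe sets over the 6 arrays, with solid lines for the 5 chondroitin chain enzymes and dashed lines for the 5 heparan sulfate polymerases. Csgalnact1 lies at 3.39 in the lower part, 3 enzymes lie near the median of 5.0, and Chpf lies at 6.55, while the heparan sulfate polymerases lie between 5.97 and 8.20.

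Arrays of the same replicate number deviated together across diabetic and wildtype liver, clearly for number 1 (correlation 0.397) and weakly for numbers 2 (0.138) and 3 (0.162). Values were centred on the mean of their group, so these 3 correlations are not independent. Among the enzymes, Csgalnact2 and Chsy1 each had the same order of the 3 numbers in both groups, which was so for 232 of 1246 probe sets, or 18.6%. That share is close to what unrelated numbering would give, so it is no evidence of pairing. The orders of Csgalnact2 and Chsy1 were opposite, with number 1 highest for Csgalnact2 and lowest for Chsy1. What the arrays of 1 number have in common (day, litter or batch) is not stated in the labels.

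Some markers of other liver cells shared a feature with Chsy1. Chsy1, alone of the 5 enzymes, was highest on the array numbered 3 in both groups, a pattern of 131 probe sets, or 10.5%. The same held for 5 of 6 measured macrophage markers, 3 of 6 endothelial, 3 of 6 stellate cell and fibroblast, 1 of 8 hepatocyte and 0 of 5 lymphocyte markers. The macrophage marker without this pattern was Clec4f. The summed macrophage signal was 8.50, 8.63 and 9.29 on diabetic arrays 1 to 3, against 8.68, 8.73 and 9.25 on wildtype arrays 1 to 3 (log2 of the sum). The stellate cell and fibroblast signal was 8.17 to 8.64 on diabetic and 8.15 to 9.10 on wildtype arrays, and the endothelial signal 7.28 to 7.65 on diabetic and 7.45 to 7.66 on wildtype arrays. These ranges overlapped between diabetic and wildtype liver, no marker value can be read as 0 on this scale, and the part of other cells in the Chsy1 values was not tested. In RNA of whole liver, fewer cells of a type and less RNA per cell cannot be told apart.

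The named genes with the most similar course over the 6 arrays were sought for the 3 enzymes whose spread exceeded that of the median probe set, by the root mean square difference of values centred on each gene's own mean. For Chsy1 the nearest of 908 other genes were Uap1l1 at 0.0715, Cd207 at 0.11 and Il1a at 0.116, against a median gene at 0.319. Uap1l1, a relative of the enzyme that makes UDP-N-acetylglucosamine, gave 5.41, 5.70 and 6.14 on diabetic arrays 1 to 3, against 5.88, 5.83 and 6.11 on wildtype arrays 1 to 3. For Chsy3 they were Timd4, a receptor of resident macrophages, at 0.0971, the endothelial adhesion molecule Pecam1 at 0.105 and the endothelial proteoglycan Esm1 at 0.109, against a median of 0.254. Timd4 (mean 3.54) and Esm1 (mean 2.84) were among the dimmest 25% of probe sets, so their signals may not follow those cell types. For Csgalnact2 they were Fibp at 0.055, the hexosamine pathway enzyme Pgm3 at 0.0673 and Rbm42 at 0.0685, against a median of 0.215. With 6 arrays, and some of the likeness shared by replicate number, these are descriptions only.

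The exostosin family, which polymerises heparan sulfate on the same linkage, was set beside the chondroitin enzymes. All 5 measured members had means above the median probe set, from 5.97 for Extl1 to 8.20 for Ext1, against 2 of 5 chondroitin enzymes. These are signals of different probe sets and do not compare transcript abundance between the families. Means in diabetic liver were lower for 4 and higher for 1 of the exostosins, with a median difference of -0.04 and 0 called. The largest difference was -0.28 for Extl1. Wildtype 2 was the highest array for Ext1, Ext2, Extl1 and Extl3. Without it Extl1 differed by -0.01 and Ext1 by 0.22, against 0.10 for Ext1 with all arrays. The list's median was then 0.05, with 2 lower and 3 higher.

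**Figure D3:**
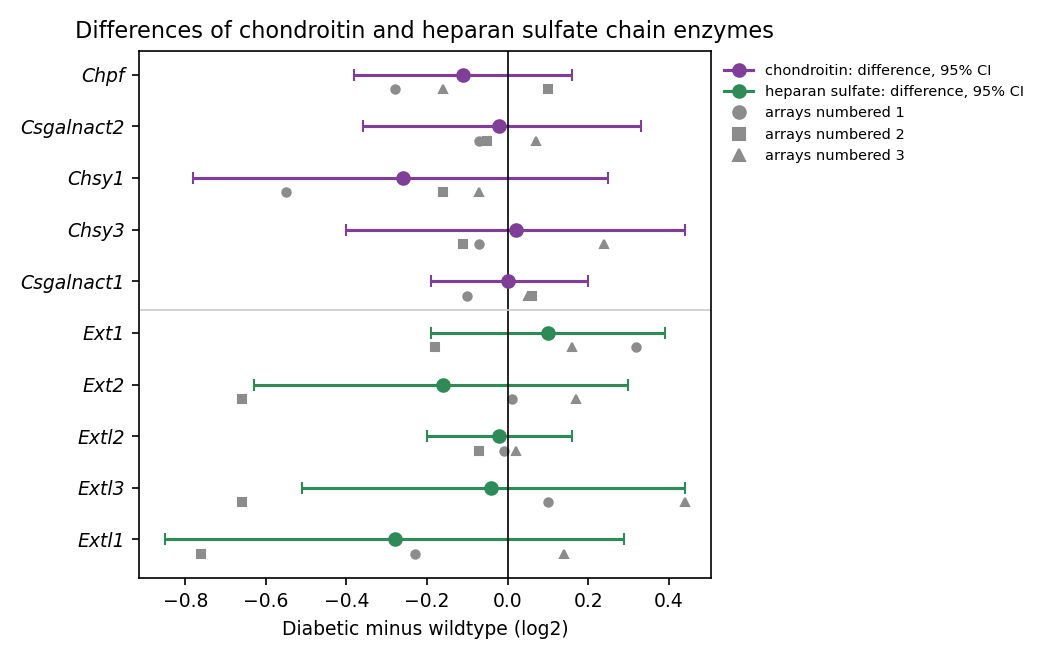
Difference between diabetic and wildtype liver (log2) for the 5 chondroitin enzymes and the 5 heparan sulfate polymerases, as coloured points with 95% confidence intervals, with the differences between arrays of the same number as grey symbols below each. Every interval includes 0, and the interval of Chsy1 runs from -0.78 to 0.25.

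Whether the 2 chains' enzymes differed in balance was tested on 4 ratios within each array. The first-step ratio of Csgalnact1 over Extl3 differed by 0.04 between diabetic and wildtype liver on the log2 scale, and that of Csgalnact2 over Extl3 by 0.02 (exact two-sided permutation p = 1 for both). Extl3 alone differed by -0.04, Csgalnact1 by 0.00 and Csgalnact2 by -0.02, so both ratios largely repeat Extl3 with its sign turned. As a change of the dim Csgalnact1 would be compressed, its ratio cannot decide on the balance. The chain-lengthening ratio of Chsy1 over Ext1 was -3.92, -3.39 and -3.08 on diabetic arrays 1 to 3, against -3.04, -3.41 and -2.85 on wildtype arrays 1 to 3. Its means were -3.46 ± 0.42 in diabetic liver and -3.10 ± 0.28 in wildtype liver (SD, n = 3 each), a difference of -0.36 (exact permutation p = 0.3). Chsy1 over Ext2 differed by -0.10 (exact permutation p = 0.8). With 3 arrays against 3 the smallest possible p is 0.1, and after adjustment over the 4 ratios each p was 1. The ratio of Chsy1 over Ext1 ran from -0.555 to -0.136 when 1 array was left out. The probe set of Extl3 carries a suffix for possible cross-hybridisation, while those of the 5 chondroitin enzymes carry none. Other probe sets named here carry such a suffix too, among them those of Xylt2, Dcn and Cd74. The sizes of the ratios themselves compare different probe sets and have no meaning as abundance.

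Upstream of the polymerases, the enzymes that build the linkage had lower means in diabetic liver for 5 of 5 measured genes, with a median of -0.13 and 0 called. Xylt1, which attaches the first xylose to the core protein, gave 5.14, 5.22 and 4.97 on diabetic arrays 1 to 3, against 5.26, 5.26 and 5.28 on wildtype arrays 1 to 3. It was the 1 gene of this list without overlap, as were 7.87% of all probe sets. Its difference of -0.16 (limma adjusted p = 0.928) was -0.08 without diabetic 3. The galactosyltransferase B4galt7 differed by -0.15, the glucuronyltransferase B3gat3 by -0.13 and Xylt2 by -0.09. Leaving out 1 array gave -0.25 to -0.07 for B4galt7, -0.30 (without diabetic 1) to 0.00 (without diabetic 3) for B3gat3, and -0.32 (without wildtype 3) to 0.17 (without wildtype 2) for Xylt2. Without diabetic 3, 3 of the 5 were lower and 2 higher, and without wildtype 2, 4 were lower and 1 higher.

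For the supply of donor sugars, 3 of 5 means were higher and 2 lower in diabetic liver, with 0 called. The median of 0.53 was 0.15 when wildtype 1 was left out and 0.27 when wildtype 2 was. Ugp2, which makes UDP-glucose, gave 9.75, 9.53 and 9.32 on diabetic arrays 1 to 3, against 9.06, 8.58 and 8.66 on wildtype arrays 1 to 3. The diabetic arrays were all higher than any wildtype array, where 7.87% of all probe sets were free of overlap in either direction. The difference of 0.77 did not pass after adjustment (limma adjusted p = 0.619, and 0.195 with the replicate block). It ran from 0.66 to 0.92 with 1 array left out. Ugdh, which oxidises UDP-glucose to the UDP-glucuronic acid that chondroitin chains consume, gave 10.91, 10.64 and 11.14 on diabetic arrays 1 to 3, against 10.36, 9.85 and 10.90 on wildtype arrays 1 to 3. The groups overlapped for Ugdh, with a difference of 0.53 (limma adjusted p = 0.928) that was 0.27 without wildtype 2. Slc35d1, which carries UDP-glucuronic acid and UDP-N-acetylgalactosamine into the endoplasmic reticulum and is needed for chondroitin sulfate in mouse cartilage, had a difference of -0.37 that was -0.01 when wildtype 2 was left out and -0.73 when wildtype 3 was. Its relative Slc35d2 differed by 0.55, between 0.15 without wildtype 1 and 1.04 without wildtype 2.

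Downstream, the enzymes that sulfate and epimerise the chain had 4 higher and 4 lower means among 8 measured, with a median of 0.02 and 0 called. Ust, the uronyl 2-O-sulfotransferase, gave 7.48, 7.83 and 7.66 on diabetic arrays 1 to 3, against 7.04, 6.92 and 7.52 on wildtype arrays 1 to 3, a difference of 0.50 (limma adjusted p = 0.928). Its dimmer probe set, with a mean of 3.35, differed by -0.02, and both carry a suffix for possible cross-hybridisation. The 4-O-sulfotransferase Chst11 differed by -0.24, the 6-O-sulfotransferase Chst3 by -0.18 and the dermatan 4-O-sulfotransferase Chst14 by 0.06. Leaving out 1 array gave -0.39 (without diabetic 3) to -0.13 (without wildtype 2) for Chst11, -0.26 to -0.12 for Chst3 and 0.01 to 0.09 for Chst14.

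Core proteins that can carry the chain had 7 lower and 6 higher means among 13 measured, with a median of -0.01 and 0 called. Their largest differences were -0.41 for Cd74, the invariant chain of antigen-presenting cells, which was -0.11 without wildtype 3 and -0.61 without diabetic 3, and -0.21 for decorin, Dcn, which was -0.50 without wildtype 2 and 0.12 without wildtype 3. Ptprz1 differed by 0.20 at a dim probe set (mean 2.68) and Cd44 by 0.16, or -0.17 without diabetic 3. Enzymes of chondroitin and dermatan breakdown had 4 lower and 3 higher means among 7 measured, with a median of 0.00 and 0 called. The iduronidase Idua differed by -0.48 and the hyaluronidase Hyal1 by -0.41, while the N-acetylgalactosamine 4-sulfatase Arsb and the glucuronidase Gusb each differed by 0.24. Without wildtype 3 the differences were -0.87 for Idua, -0.67 for Hyal1, 0.13 for Arsb and 0.08 for Gusb. At the other end, Idua was at -0.26 without wildtype 2, Hyal1 at -0.18 without diabetic 2 and Gusb at 0.42 without wildtype 1. Idua gave 5.88, 5.99 and 4.77 on wildtype arrays 1 to 3. With 1 array left out, its limma adjusted p ran from 0.0568 to 0.995.

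**Figure D4:**
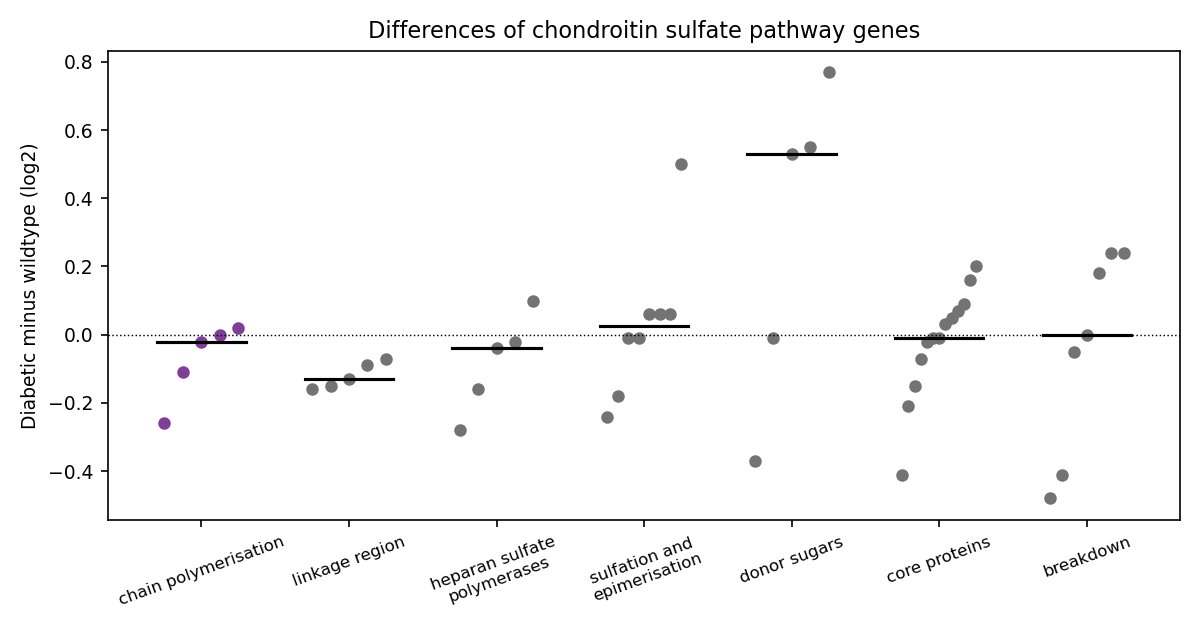
Difference between diabetic and wildtype liver (log2) for each measured gene of the chondroitin sulfate pathway, with the heparan sulfate polymerases of the competing chain beside them. Each gene is 1 point, grouped by list and sorted by value within it, with black lines at the median of each list. The 5 chain enzymes (purple) lie between -0.26 and 0.02, and the largest single difference plotted is 0.77, for the donor sugar gene Ugp2.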

How the data were processed

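Total liver RNA of 3 diabetic and 3 wildtype males was hybridised, 1 sample per Affymetrix array. The deposited values were made by the authors with RMA, per the submitters' processing notes, and were treated as log2 because they ran from 2.03 to 13.45. The sources used here give neither version nor settings. Between-array normalization would hide a change shared by most probe sets. Array medians lay between 4.93 and 5.06. Wildtype 2 stood furthest apart, with 40 probe sets over 0.5 beyond every other array, against 1 to 21 on the others. The number of arrays limits the precision: the median standard error of a difference was 0.11.

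Of 1246 probe sets, 963 were named by accession through RefSeq (GRCm38.p6, used for names and promoter windows), which gave 909 genes, and 283 stayed unnamed. A gene with several probe sets was represented by the one with the highest mean. Groups were compared with limma 3.58.1 in R 4.3.3 (lmFit, eBayes, 4 residual and 2.44 prior degrees of freedom), adjusted over all probe sets. For ratios, arrays were permuted exactly between the groups (two-sided). Scripts were tested on simulated data.

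Same-numbered arrays deviated together with correlations of 0.397, 0.138 and 0.162, all over the limit of 0.1, so the numbers were treated as pairs in an alternative fit. Through the centring within each group, these correlations are not independent of each other. The pairing comes from the replicate numbers in the sample titles. Alternatives were a median shift, quantile normalization, leaving out the dimmest 25% of probe sets, eBayes with trend and robust, array weights, the replicate block, no moderation, a threshold of 0.10 and leaving out each array.

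The enzymes, lists and tests were chosen with earlier results of these data known. The genes named were all enzymes of the group, up to 4 per pathway list by size of difference, and the 3 nearest in course to an enzyme. The hepatocyte, brain and cartilage genes were added after their values had been seen. Genes of the lists without a named probe set were not analysed here.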

Additional observations from a re-analysis of the deposited data

How the results depend on the processing

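In every alternative run, 0 of the 5 enzymes passed the threshold, with limma adjusted p between 0.821 and 0.999. The count over all probe sets was 4; it was 0 with trend and robust, with the replicate block and without moderation, and 0 to 1 with 1 array left out. Chsy1 and Chpf kept a lower mean in diabetic liver in all refits, at -0.46 to -0.0493 for Chsy1 and -0.22 to -0.0569 for Chpf with 1 array left out. The signs of the near-zero differences turned: quantile normalization gave -0.00243 for Csgalnact1, 0.0136 for Csgalnact2 and 0.00342 for Chsy1 over Ext2, and array weights gave -0.0608 for Chsy3. Leaving out 1 array gave -0.0376 to 0.0575 for Csgalnact1, -0.114 to 0.105 for Csgalnact2 and -0.123 to 0.183 for Chsy3. For the ratios it gave -0.136 to 0.156 for Csgalnact1 over Extl3, -0.192 to 0.205 for Csgalnact2 over Extl3 and -0.349 to 0.167 for Chsy1 over Ext2. Both ratios over Extl3 were lowest without wildtype 2, where Extl3 itself differed by 0.15, against -0.04 with all arrays. The cause of these turns was not tested. The replicate block cannot move a difference here. For Chsy1 it narrowed the standard error to 0.12, with an interval of -0.60 to 0.07 (limma adjusted p = 0.822), and it changed no call among the enzymes. Csgalnact1 fell among the dimmest 25% of probe sets and has no value without it, and no enzyme had another probe set to use instead. Without detection calls, signal over background limits what can be said of Csgalnact1, Csgalnact2, Chsy1 and Chsy3.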
